A study of Mus musculus with 6 samples.

Results

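The 33 genes described here encode the enzymes of glycolysis and of the fate of pyruvate, together with a glucose carrier, the lactate carriers and the enzymes that set fructose 2,6-bisphosphate. They were chosen by name from the rows of the expression table, with earlier results of these data known, and all 33 were found among its 24736 genes. Polyadenylated RNA was sequenced from wild-type mouse embryonic stem cells (ESCs, 0 h) and from epiblast-like cells (EpiLCs) made from them in 48 h, with 3 biological replicates of each. The time is that of the sample labels and of the study's own results text, while its methods give a longer culture for EpiLCs in general. Both groups carried the same wild-type genotype, in the XY HM1 TetON line that the study used as its wild-type control. ESCs were kept on mitotically inactive fibroblast feeder cells with 10% serum and 1000 U/ml LIF, the cytokine that holds ESCs undifferentiated, and EpiLCs were grown in serum-free N2B27 medium, where 10 ng/ml of the growth factor bFGF and 5 µM of LGK974, a block on WNT secretion, were added. Before differentiation, ESCs were parted from feeders by letting the feeders attach to plastic, and whether the 0 h RNA was taken after that step is not given in the sources used here. Serum, LIF, feeders and time therefore changed together between the groups, and the effect of medium cannot be told apart from that of cell state.

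Glycolysis splits glucose into pyruvate in the cytosol. Pyruvate is then either reduced to lactate, which leaves the cell through monocarboxylate transporters, or enters mitochondria and is turned into acetyl-CoA by the pyruvate dehydrogenase (PDH) complex, which PDH kinases switch off and PDH phosphatases switch on. Naive mouse ESCs are known to use both routes, and primed epiblast cells are known to rely more on glycolysis. RNA levels say nothing direct about the flux through any step.

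The libraries held 16967741 to 35096210 expected counts, and each ESC library was shallower than each EpiLC library. The lowest expected count of any of the 33 genes in a library was 59. ESC markers were lower in EpiLCs for 8 of 8 genes and EpiLC markers higher for 6 of 6, while Pou5f1, expressed in both states, did not pass the test, so the labels matched the markers. The 14 fibroblast markers summed to 373, 1709 and 135 TPM (a level corrected for transcript length and library size) in ESC replicates 1, 2 and 3 and to 95.8 to 106 TPM in EpiLCs, and 7 of the 13 tested were lower in EpiLCs. Of the 14, Lum was at most 0.18 TPM and Dcn at most 1.63 TPM in any library. The 13 tested had a median log2 fold change, EpiLC minus ESC, of -2.46, from -4.74 to 0.05. The 6 primitive endoderm markers summed to 39.2 to 72.6 TPM in ESCs and 10.5 to 11.0 TPM in EpiLCs, and 5 were lower in EpiLCs. Values without ESC replicate 2, the library with the most fibroblast marker RNA, are given where leaving it out changes a call. They are also given for the 3 of the 33 genes that were higher in EpiLCs.

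Between ESCs and EpiLCs the abundant enzymes of glycolysis changed by smaller folds than particular isozymes, transporters and PDH regulators. By edgeR's quasi-likelihood test, at a threshold of 0.05 on the p adjusted across the table, 3 of the 33 genes were higher in EpiLCs (Slc2a1, Pfkm and Slc16a3), 14 were lower, and 16 did not pass. This was 51.5% of the genes described, against 45.4% of the 14468 genes tested. The rises took 9.09% of them against 22.6% of all genes, and the falls 42.4% against 22.8%. All 33 passed the filter on low counts. The count of falls was 8 without EpiLC replicate 1, 9 without EpiLC replicate 2, 9 without EpiLC replicate 3 and 15 without ESC replicate 2. The falls over all genes also varied between such fits, as given at the end. These counts, and those given below for other lists, therefore do not describe the listed genes alone.

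Only 5 of the genes passed the test with a change of at least 1 on the log2 scale, in either direction, namely Slc2a1, Pfkm, Pfkp, Hk1 and Pdk4. That is 15.2% of them, against 20.2% of all genes tested. Their median log2 fold change was -0.12, against -0.0017 over all genes tested, and it was -0.24 without ESC replicate 2 and -0.047 without ESC replicate 3. The 16 genes that did not pass had log2 fold changes between -0.35 and 0.33, and the 95% intervals of all 16 lay inside a doubling or halving, that is within -0.87 and 0.94. Without ESC replicate 2 the 3 rising genes kept their calls with smaller log2 fold changes. These were 1.445 for Slc2a1, 0.922 for Pfkm and 0.529 for Slc16a3, against 1.567, 1.03 and 0.711 with all libraries.

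**Figure D1:**
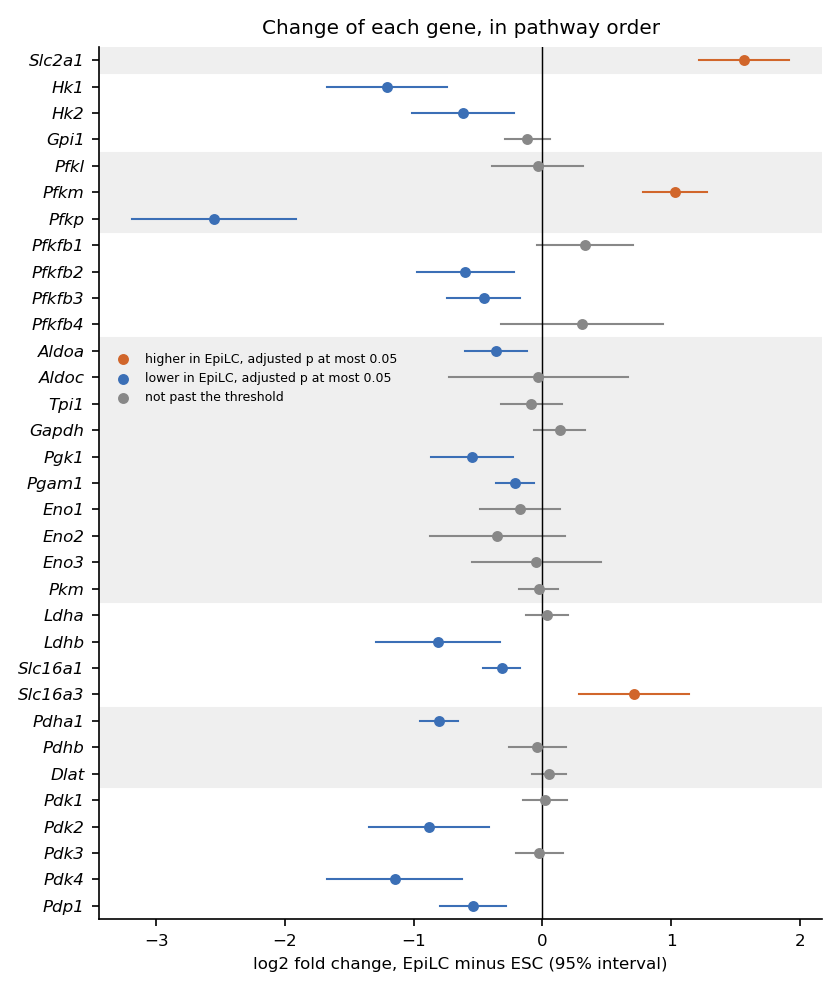
The log2 fold change of each gene, EpiLC minus ESC, is plotted in pathway order from glucose uptake to PDH regulation, with the 95% interval of the edgeR fit as a bar, over 3 ESC and 3 EpiLC libraries. The 3 rising genes stand right of 0 and Pfkp, at -2.55, stands farthest to the left, while most genes from Aldoa to Ldha lie close to 0.

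The 7 genes with a mean above 1000 TPM in ESCs were Aldoa, Gapdh, Pgk1, Pgam1, Eno1, Pkm and Ldha. By edgeR with all libraries none of the 7 rose, also at an unadjusted p under 0.05 and by DESeq2. By edgeR 3 of them fell, and the log2 fold changes of the 7 ran from -0.55 to 0.13. Without ESC replicate 3, Gapdh passed as a rise (log2 fold change 0.22, edgeR adjusted p = 0.0413). The other 26 genes, from the carriers to the regulators, ran from -2.55 to 1.57, with 3 rises and 11 falls. A range over 26 genes can be wider than one over 7 by number alone. Falls took a similar share of both sets, above the 22.8% of all genes tested. The 33 genes together took 1.34% to 1.62% of all TPM in the ESC libraries and 1.40% to 1.51% in the EpiLC libraries, and these ranges overlapped. Without a count of cells, fewer cells of a type and less RNA per cell cannot be told apart in any of these values.

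**Figure D2:**
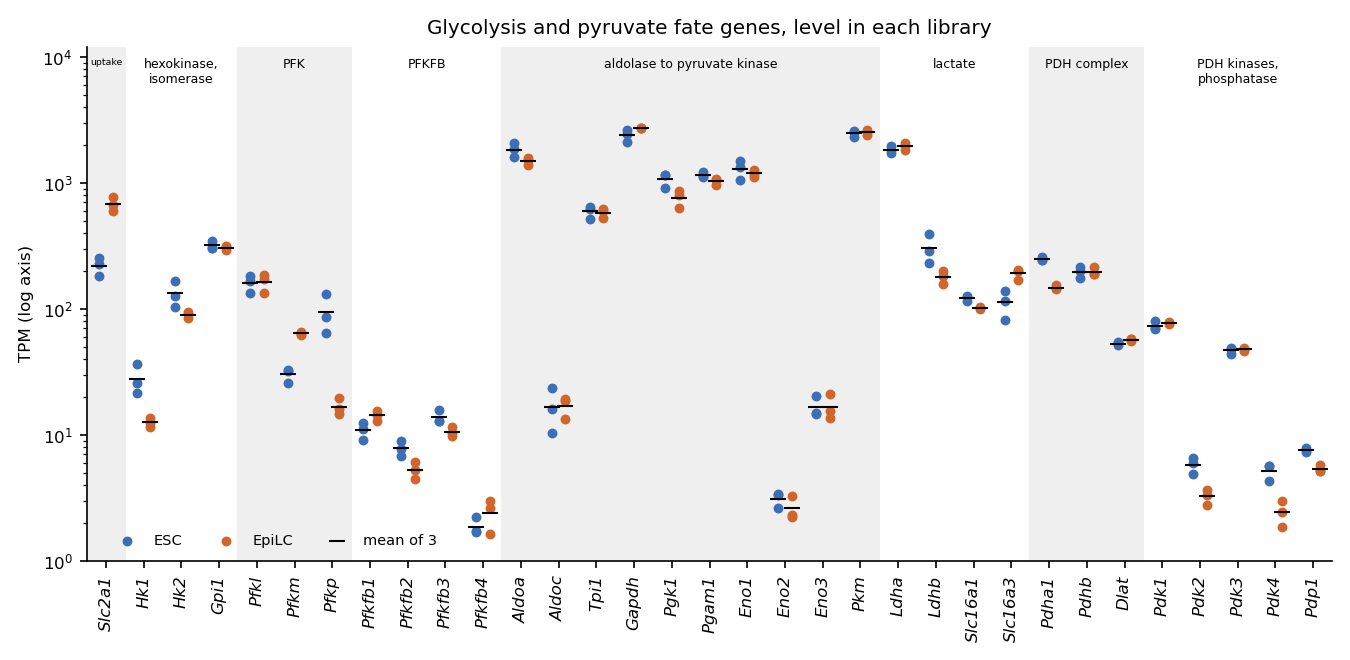
The level of each gene in each of the 6 libraries is plotted in TPM on a log axis, with ESC libraries at left and EpiLC libraries at right of each gene, and a black dash for the mean of 3. By mean, Aldoa, Gapdh, Pgk1, Pgam1, Eno1, Pkm and Ldha stand highest in both groups, with 2401 TPM for Gapdh in ESCs against 2731 TPM in EpiLCs. Their minor isozymes stand far lower, and the groups are clear of each other for Slc2a1, Pfkm, Pfkp and Pdha1.

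The stretches before the start of the 3 rising genes are shown together with those of Pfkp, the gene that fell most, and Ldha, an abundant enzyme that did not pass the test, because genes of glycolysis are known targets of the hypoxia-inducible factor HIF1, whose elements often hold the core ACGTG. The stretches were taken from RefSeq on GRCm38.p6, in the direction of the gene, and run from 250 bases before an annotated start. The last 15 bases were left off for Slc2a1 and the last 6 for Pfkp, since another annotation places an exon there. Capitals mark ACGTG on either strand, and CACGTG holds that core on both strands.
Slc2a1 (chr4:119108495-119108729, plus strand): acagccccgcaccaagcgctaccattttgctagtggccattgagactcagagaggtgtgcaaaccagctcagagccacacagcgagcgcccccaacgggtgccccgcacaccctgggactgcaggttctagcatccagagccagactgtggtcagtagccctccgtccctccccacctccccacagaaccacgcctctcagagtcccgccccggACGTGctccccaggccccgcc
Slc16a3 (chr11:120948817-120949066, plus strand): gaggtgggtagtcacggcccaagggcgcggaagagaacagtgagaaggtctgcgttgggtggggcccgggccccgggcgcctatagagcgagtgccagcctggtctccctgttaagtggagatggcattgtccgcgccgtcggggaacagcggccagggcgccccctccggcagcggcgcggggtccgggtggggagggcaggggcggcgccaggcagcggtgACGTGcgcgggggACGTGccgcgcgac
Pfkm (chr15:98092339-98092588, plus strand): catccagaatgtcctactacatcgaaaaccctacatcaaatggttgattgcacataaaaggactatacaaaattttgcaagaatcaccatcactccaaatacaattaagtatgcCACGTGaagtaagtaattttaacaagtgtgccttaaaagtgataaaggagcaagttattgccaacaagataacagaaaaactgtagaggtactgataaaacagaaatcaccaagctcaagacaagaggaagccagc
Ldha (chr7:46845554-46845803, plus strand): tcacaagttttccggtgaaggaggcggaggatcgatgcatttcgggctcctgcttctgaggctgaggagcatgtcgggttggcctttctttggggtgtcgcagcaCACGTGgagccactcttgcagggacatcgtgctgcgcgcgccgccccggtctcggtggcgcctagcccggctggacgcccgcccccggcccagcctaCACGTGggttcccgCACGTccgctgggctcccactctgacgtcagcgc
Pfkp (chr13:6648778-6649021, minus strand): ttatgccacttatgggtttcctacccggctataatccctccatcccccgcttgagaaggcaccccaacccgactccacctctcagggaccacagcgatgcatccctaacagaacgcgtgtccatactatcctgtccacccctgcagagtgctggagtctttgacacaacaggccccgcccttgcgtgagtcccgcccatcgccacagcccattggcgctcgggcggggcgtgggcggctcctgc
The Slc2a1 and Slc16a3 stretches hold the core near the start, Ldha holds it at 3 places, and the Pfkp stretch does not hold these letters. The Pfkm stretch belongs to the first of 4 RefSeq starts of that gene and the Ldha stretch to the first of 2, and ACGTG is absent before the other Ldha start and before 2 of the other 3 Pfkm starts. Which start was used cannot be read from gene counts.

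In the 250 bases before RefSeq starts, ACGTG stood on either strand in 16.6% of all 32851 promoters, and 18.5% of the 27025 genes had it before at least 1 of their starts. Of the 32 glycolysis and pyruvate genes with an entry, 15 had it, which is 46.9%, or 37.3% of their 51 promoters. It was there for 3 of the 3 that rose, 8 of the 13 that fell and 4 of the 16 that did not pass. The E-box CACGTG, bound by MYC family and carbohydrate response factors, stood before 6 of the 32 genes (18.8%) against 6.86% of all genes, and in 11.8% of their promoters against 6.02% of all promoters. AAGGTCA, the core read by the ESC factor ESRRB, stood before 2 of the 32 genes (6.25%) against 4.70% of all genes, and in 3.92% of their promoters against 4.08% of all. A match is a description of the sequence and is no measure of binding. Slc2a3 and Pdp1 are named here without a sequence.

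Glucose uptake held the largest rise of the 33 genes and, beside it, a larger fall of a related carrier. Slc2a1 (chr4:119108745-119137330 in RefSeq on GRCm38.p6) encodes GLUT1, the glucose carrier of most dividing cells. Its level was 227, 183 and 253 TPM in ESC replicates 1 to 3 and 767, 594 and 673 TPM in EpiLC replicates 1 to 3. Every EpiLC library lay above every ESC library. The level was 2.96-fold higher in EpiLCs, with a log2 fold change of 1.57 ± 0.15 (SE, n = 3 per group, edgeR adjusted p = 3.99e-04).

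Slc2a3, which encodes the high-affinity carrier GLUT3 and is not among the 33 genes, took the opposite course. It stood at 437, 410 and 585 TPM in ESCs and at 65.5, 45.0 and 81.2 TPM in EpiLCs, without overlap. It was 7.73-fold lower in EpiLCs, with a log2 fold change of -2.95 ± 0.25 (SE, edgeR adjusted p = 2.76e-04). Together both carriers summed to 698 ± 126 TPM (SD, n = 3) in ESCs and 742 ± 97.4 TPM in EpiLCs, and the groups overlapped. Slc2a1 made up 31.7% ± 2.15 (SD, n = 3) of that sum in ESCs and 91.4% ± 1.96 in EpiLCs, so the leading carrier changed while their sum did not differ beyond its spread (exact two-sided permutation p = 0.8). With 3 against 3 libraries, the smallest p such a test can give is 0.1.

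Of the other carriers of that kind, Slc2a8 was at 9.85 ± 2.24 TPM (SD, n = 3) in ESCs and 7.28 ± 1.05 TPM in EpiLCs and did not pass the test. Slc2a2, the carrier of liver and pancreatic beta cells, was listed at 0 in all 6 libraries.

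Hexokinases trap glucose in the cell as glucose 6-phosphate, and both members fell. Hk1 (chr10:62268855-62379920), the housekeeping form, was at 21.7, 25.6 and 36.4 TPM in ESCs and at 12.5, 13.7 and 11.5 TPM in EpiLCs. Hk2, the inducible form, was at 104, 127 and 168 TPM in ESCs and at 91.2, 94.2 and 84.9 TPM in EpiLCs. Neither gene had an EpiLC library above an ESC library. The log2 fold change was -1.21 ± 0.20 (SE, edgeR adjusted p = 0.00316) for Hk1 and -0.62 ± 0.17 (adjusted p = 0.0220) for Hk2.

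Hk2 was the more abundant form throughout, with 82.7% ± 0.524 (SD, n = 3) of the summed hexokinase TPM in ESCs and 87.8% ± 0.425 in EpiLCs, and these shares did not overlap. The sum was 161 ± 39.8 TPM in ESCs and 103 ± 5.80 TPM in EpiLCs, also without overlap (exact permutation p = 0.1, the smallest possible). The call for Hk2 was lost when any EpiLC library was left out (adjusted p = 0.0615 to 0.0772), and its log2 fold change was -0.40 without ESC replicate 3. Gpi1, which turns glucose 6-phosphate into fructose 6-phosphate, was at 320 ± 24.5 TPM in ESCs against 306 ± 10.7 TPM in EpiLCs and did not pass the test.

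Phosphofructokinase, the committed step of glycolysis, is a tetramer built from liver (Pfkl), muscle (Pfkm) and platelet (Pfkp) subunits, and here the subunits moved apart. Pfkp (chr13:6579874-6649060) was at 86.0, 64.5 and 131 TPM in ESCs and at 16.0, 19.6 and 14.5 TPM in EpiLCs. The lowest ESC library was still above the highest EpiLC library. It was 5.86-fold lower in EpiLCs, with a log2 fold change of -2.55 ± 0.27 (SE, edgeR adjusted p = 5.81e-04), the largest fall of the 33 genes, and it ran from -2.76 without ESC replicate 2 to -2.21 without ESC replicate 3.

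Pfkm (chr15:98092589-98132447) moved the other way, from 32.3, 25.7 and 32.6 TPM in ESCs to 62.6, 65.2 and 63.7 TPM in EpiLCs. The EpiLC libraries had an SD of 1.32 TPM and each lay well above every ESC library. It was 2.04-fold higher, with a log2 fold change of 1.03 ± 0.11 (SE, edgeR adjusted p = 5.21e-04). Pfkl, the most abundant subunit, was at 161 ± 24.7 TPM in ESCs against 164 ± 26.4 TPM in EpiLCs and did not pass (log2 fold change -0.04, 95% interval -0.39 to 0.32).

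The ratio of Pfkm to Pfkp was 0.376, 0.399 and 0.249 in ESCs and 3.92, 3.33 and 4.38 in EpiLCs, so their order was reversed in every library. As shares of the summed phosphofructokinase TPM, Pfkp went from 32.3% ± 4.95 (SD, n = 3) to 6.83% ± 0.440 and Pfkm from 10.7% ± 1.14 to 26.4% ± 3.14. Pfkl took 57.0% ± 3.82 in ESCs and 66.8% ± 3.13 in EpiLCs. None of these 3 shares overlapped between groups, whereas the sum of the 3 subunits, 285 ± 61.0 TPM in ESCs and 244 ± 29.2 TPM in EpiLCs, did overlap (exact permutation p = 0.4).

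**Figure D3:**
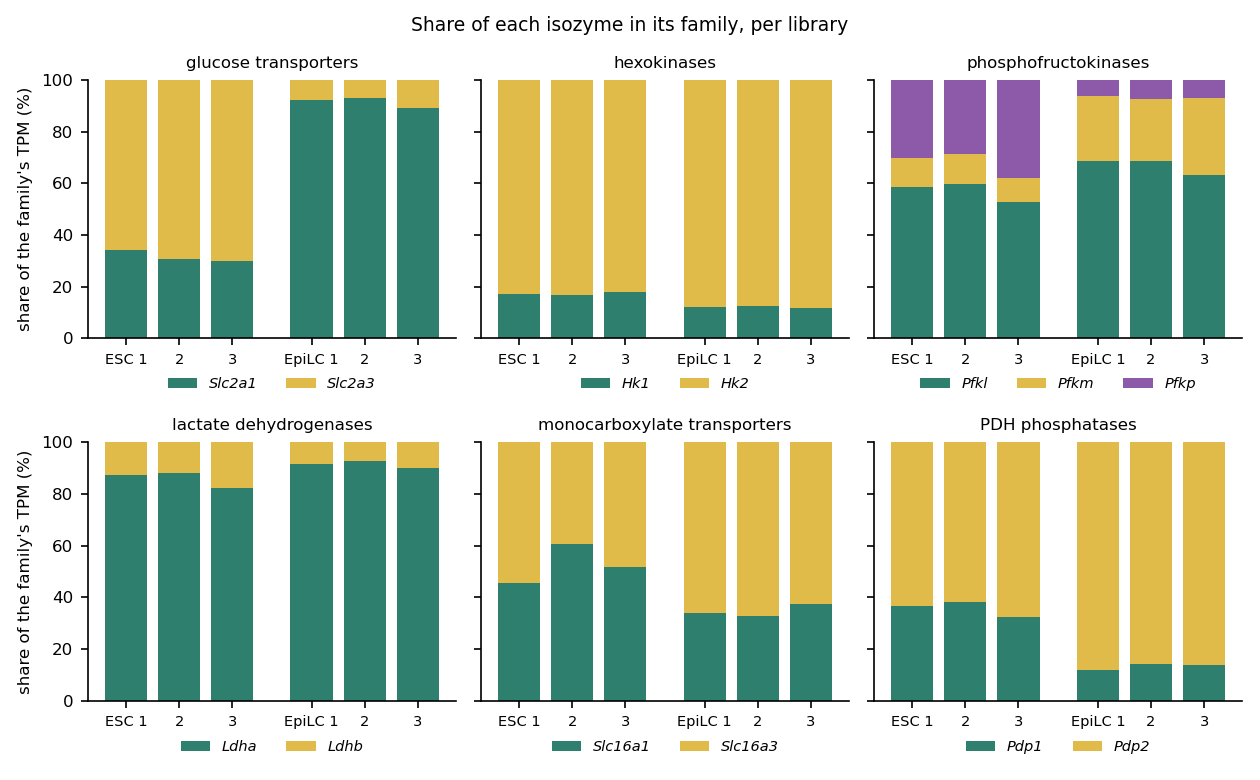
The share of each isozyme in the summed TPM of its family is stacked to 100% for each library, with ESC replicates at left and EpiLC replicates at right of each panel. The glucose carriers change most, from 31.7% to 91.4% Slc2a1 on average, followed by the phosphofructokinases and the PDH phosphatases, and the lactate carriers vary among ESC replicates, with an SD of 7.68 percentage points.

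The 4 PFKFB genes encode bifunctional enzymes that make and remove fructose 2,6-bisphosphate, the strongest activator of phosphofructokinase. All 4 were scarce, between 1.63 and 15.8 TPM in any library. Pfkfb2 fell from 7.81 ± 1.12 TPM (SD, n = 3) to 5.28 ± 0.775 TPM and Pfkfb3 from 13.9 ± 1.65 TPM to 10.6 ± 0.967 TPM, with log2 fold changes of -0.60 ± 0.16 (SE, edgeR adjusted p = 0.0200) and -0.46 ± 0.12 (adjusted p = 0.0201). Each lost its call without some of the libraries: Pfkfb2 without EpiLC replicate 1 or 3 (highest adjusted p = 0.0676), and Pfkfb3 without ESC replicate 1 or EpiLC replicate 2 or 3 (highest adjusted p = 0.0782).

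Pfkfb1 was at 11.2, 9.19 and 12.4 TPM in ESCs and 15.5, 14.4 and 13.0 TPM in EpiLCs, which do not overlap, but its log2 fold change of 0.33 did not pass the test (adjusted p = 0.126). Pfkfb4, known as a hypoxia-induced form, was at 1.87 ± 0.292 TPM in ESCs against 2.40 ± 0.691 TPM in EpiLCs and did not pass either. The share of Pfkfb1 in the family was 31.6% ± 3.99 (SD, n = 3) in ESCs and 44.0% ± 1.11 in EpiLCs, and that of Pfkfb3 was 40.2% ± 3.89 in ESCs and 32.5% ± 1.77 in EpiLCs, both without overlap. The family sum was 34.5 ± 1.12 TPM in ESCs and 32.6 ± 3.24 TPM in EpiLCs, with overlap.

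The middle of the pathway, from aldolase to pyruvate kinase, showed small changes. Aldoa, the aldolase that splits fructose 1,6-bisphosphate, was at 1861, 1606 and 2060 TPM in ESCs and 1514, 1577 and 1378 TPM in EpiLCs, with a log2 fold change of -0.36 ± 0.10 (SE, edgeR adjusted p = 0.0248). Pgk1, which makes the first ATP of the pathway, was at 1151, 916 and 1153 TPM in ESCs and 799, 858 and 628 TPM in EpiLCs, a 1.46-fold fall (log2 fold change -0.55 ± 0.14, adjusted p = 0.0155). Pgam1, phosphoglycerate mutase, fell by 0.21 ± 0.06 on the log2 scale (adjusted p = 0.0284), from 1157 ± 47.3 TPM (SD, n = 3) to 1036 ± 59.5 TPM. In all 3 genes the EpiLC libraries lay below the ESC libraries.

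Of these falls, that of Pgk1 held in every alternative fit. Aldoa lost its call without ESC replicate 1 or without any EpiLC replicate (highest adjusted p = 0.0880). Pgam1 lost it in 9 of 13 alternatives, among them upper-quartile scaling (adjusted p = 0.0627) and both limma fits.

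Tpi1, Gapdh, Eno1 and Pkm did not pass the test. Pkm, pyruvate kinase, was at 2541, 2305 and 2599 TPM in ESCs and 2547, 2628 and 2391 TPM in EpiLCs, with a log2 fold change of -0.03 and a 95% interval of -0.18 to 0.12. Counts per gene do not separate its M1 and M2 isoforms. Tpi1, which interconverts the triose phosphates, was at 595 ± 68.1 TPM (SD, n = 3) and 583 ± 48.4 TPM. Gapdh, the dehydrogenase often used as a reference gene, was at 2431, 2133 and 2639 TPM in ESCs and 2727, 2741 and 2724 TPM in EpiLCs. The EpiLC libraries were all above the ESC libraries in TPM, yet the log2 fold change of 0.13 did not pass (adjusted p = 0.227). It passed without ESC replicate 3 (adjusted p = 0.0413).

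Some of these abundant genes share sequence with near-identical copies, which can move reads between them. Of the 76-base stretches of the Gapdh transcript, 65.2% also occurred in other genes of the table, and of Eno1 64.0% also occurred in Eno1b. Eno1 was at 1296 ± 218 TPM (SD, n = 3) in ESCs and 1189 ± 86.2 TPM in EpiLCs, and Eno1b held more, at 2462 ± 196 TPM and 2229 ± 83.0 TPM. With the counts of Eno1 and Eno1b summed, the log2 fold change was -0.19 (adjusted p = 0.116). Gapdh was summed with the 7 genes of the table that shared any such stretch with it, Peli2 among them. The log2 fold change of that sum was 0.14 (adjusted p = 0.198), so neither sum passed. Eno1 alone had a log2 fold change of -0.18 and passed only when ESC replicate 2 was left out (-0.30, adjusted p = 0.0300). For Pgk1, 67.5% of the stretches occurred in other annotated genes, none of which was in the table, and for Pgam1 the share was 40.6%. No such stretch was shared by Slc2a1, Hk1, Hk2, Pfkm, Pfkp, Pdha1, Slc16a1 or Slc16a3.

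The minor isozymes of this stretch did not pass the test either. Aldoc, the brain aldolase, made up 0.876% ± 0.245 (SD, n = 3) of aldolase TPM in ESCs and 1.12% ± 0.135 in EpiLCs. Eno3, the muscle enolase, was at 16.6 ± 3.36 TPM and 16.7 ± 3.83 TPM, and Eno2, the neuronal enolase, at 3.12 ± 0.419 TPM and 2.61 ± 0.567 TPM. Their levels overlapped between groups.

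At the fork after pyruvate, the B form of lactate dehydrogenase fell and the A form did not pass the test. Ldha, the subunit that favours lactate, was at 1977, 1716 and 1819 TPM in ESCs and 1976, 2070 and 1819 TPM in EpiLCs (log2 fold change 0.04, 95% interval -0.13 to 0.20). Ldhb, the subunit that favours pyruvate, was at 287, 230 and 392 TPM in ESCs and 181, 159 and 200 TPM in EpiLCs, without overlap. Ldhb was 1.75-fold lower, with a log2 fold change of -0.81 ± 0.20 (SE, edgeR adjusted p = 0.0163). Its share of lactate dehydrogenase TPM was 14.1% ± 3.20 (SD, n = 3) in ESCs and 8.48% ± 1.40 in EpiLCs, without overlap. The call was lost without EpiLC replicate 1 or 2 (adjusted p = 0.0572 and 0.0624).

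The lactate carriers moved in opposite directions. Slc16a3, which encodes MCT4, the carrier typical of cells that export lactate, was at 139, 82.3 and 116 TPM in ESCs and 200, 203 and 170 TPM in EpiLCs. Slc16a1, which encodes MCT1, was at 116, 128 and 124 TPM in ESCs and 104, 100 and 102 TPM in EpiLCs. Neither gene's groups overlapped. Slc16a3 was 1.64-fold higher (log2 fold change 0.71 ± 0.18, SE, edgeR adjusted p = 0.0173), and Slc16a1 was 1.25-fold lower (-0.32 ± 0.06, adjusted p = 0.00572).

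MCT4 transcripts made up 47.4% ± 7.68 (SD, n = 3) of the sum of both carriers in ESCs and 65.1% ± 2.40 in EpiLCs, and the sum was 235 ± 23.3 TPM and 293 ± 17.9 TPM. Neither the shares nor the sums overlapped. The fall of Slc16a1 held in every alternative fit, and the rise of Slc16a3 lost its call without EpiLC replicate 1 or 2 (highest adjusted p = 0.0603). Bsg, the chaperone that carries both transporters to the cell surface, fell by 0.33 on the log2 scale (adjusted p = 0.0178). Across the ESC libraries Bsg had the same order as the fibroblast markers, and the part of feeder RNA in the fall was not tested. Without ESC replicate 2 the log2 fold change was -0.25 (adjusted p = 0.0208), and the call was lost when any EpiLC library was left out (adjusted p = 0.0540 to 0.0663).

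In the PDH complex, 1 of the 3 subunits fell. Pdha1 (chrX:160122219-160138430), the E1 alpha subunit that is the target of the kinases and phosphatases, was at 244, 244 and 258 TPM in ESCs and 147, 143 and 154 TPM in EpiLCs. The replicates lay close together and the groups far apart. It was 1.75-fold lower, with a log2 fold change of -0.80 ± 0.06 (SE, edgeR adjusted p = 2.07e-04), and the call held in every alternative fit.

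Pdhb, the E1 beta subunit, was at 196 ± 20.3 TPM (SD, n = 3) in ESCs and 198 ± 13.4 TPM in EpiLCs, and Dlat, the E2 subunit, at 53.1 ± 1.22 TPM and 57.1 ± 1.32 TPM. Neither passed the test, with 95% intervals of -0.26 to 0.18 and -0.08 to 0.18. The ratio of Pdhb to Pdha1 was 0.788 ± 0.0640 in ESCs and 1.34 ± 0.135 in EpiLCs, without overlap. Of the subunits outside the 33 genes, Dld (E3) and Pdhx (the E3-binding protein) did not pass either, at log2 fold changes of -0.04 and -0.13.

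Of the 4 PDH kinases, the scarce ones fell and the abundant ones did not pass. Pdk4 (chr6:5483351-5496278), known as the fasting-induced kinase, was at 4.32, 5.62 and 5.64 TPM in ESCs and 2.46, 2.99 and 1.85 TPM in EpiLCs (log2 fold change -1.15 ± 0.22, SE, edgeR adjusted p = 0.00617). Pdk2 was at 5.99, 4.85 and 6.50 TPM in ESCs and 2.80, 3.65 and 3.35 TPM in EpiLCs (-0.88 ± 0.20, adjusted p = 0.0109). The groups did not overlap for either gene. Pdk2 lost its call without EpiLC replicate 1 (adjusted p = 0.0543).

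Pdk1, the hypoxia-responsive kinase, was at 69.4, 70.6 and 79.7 TPM in ESCs and 76.7, 78.1 and 76.4 TPM in EpiLCs, and Pdk3 at 46.8 ± 2.83 TPM (SD, n = 3) and 47.8 ± 1.02 TPM. Their 95% intervals were -0.15 to 0.19 and -0.21 to 0.16. Pdk1 and Pdk3 supplied most of the kinase transcripts, and the sum of all 4 was 131 ± 8.16 TPM in ESCs and 130.5 ± 2.23 TPM in EpiLCs.

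The phosphatases that reactivate the complex moved in opposite directions. Pdp1, a catalytic subunit, was at 7.82, 7.61 and 7.32 TPM in ESCs and 5.18, 5.80 and 5.14 TPM in EpiLCs, a 1.45-fold fall (log2 fold change -0.54 ± 0.11, SE, edgeR adjusted p = 0.00699). Pdp2, the other catalytic subunit and not among the 33 genes, rose from 13.6, 12.4 and 15.3 TPM to 37.9, 35.5 and 32.0 TPM (2.46-fold, adjusted p = 2.79e-04). Neither gene's groups overlapped. Pdp1 made up 35.7% ± 3.00 (SD, n = 3) of their sum in ESCs and 13.3% ± 1.12 in EpiLCs, and the sum was 21.3 ± 1.34 TPM and 40.5 ± 3.07 TPM.

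Summed by step, the TPM of EpiLCs lay above that of ESCs without overlap at 3 of 17 steps and below it at 6, and overlapped at 8. The steps above were glucose uptake by Slc2a1, the Gapdh step and lactate transport. Those below were hexokinase, aldolase, phosphoglycerate kinase, phosphoglycerate mutase, the PDH complex and Pdp1. With Pdp2 added to Pdp1 the sum of EpiLCs lay above that of ESCs, and with Slc2a3 added to Slc2a1 the sums overlapped. Among single genes, TPM did not overlap for 6 above and 14 below, against 33.8% and 25.6% of all genes tested. At each step without overlap the exact permutation p was 0.1, the smallest these libraries allow.

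The PDH complex sum, over Pdha1, Pdhb and Dlat, was 499 ± 26.8 TPM (SD, n = 3) in ESCs and 403 ± 10.0 TPM in EpiLCs. Lactate dehydrogenase summed to 2140 ± 171 TPM and 2135 ± 106 TPM, and enolase to 1316 ± 218 TPM and 1209 ± 86.6 TPM.

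The ESC libraries varied more than the EpiLC libraries. The median coefficient of variation of the 33 genes was 12.9% over ESC libraries and 8.30% over EpiLC libraries, close to the medians of 13.8% and 7.65% over all genes tested. Of the 33 genes, 22 were lowest in ESC replicate 2 and 23 highest in ESC replicate 3 among ESC libraries, and 22 were lowest in EpiLC replicate 3 among EpiLC libraries. None of the 33 had the order of the fibroblast markers across ESC libraries, and 17 had the reverse order. The part of feeder RNA in these values was not tested. The same counts over all genes tested were not taken, so these orders cannot be read as particular to the 33 genes.

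Other genes of glycolysis and pyruvate use, 29 in all, were taken from a list, of which 20 passed the filter on low counts and 11 lay below 1 TPM in every library, among them the testis forms Gapdhs and Pgk2. Of the 20, 2 rose, 8 fell and 10 did not pass, with a median log2 fold change of -0.33. The rises were Pdp2 and Bpgm, which makes 2,3-bisphosphoglycerate and was at 18.7 ± 0.786 TPM (SD, n = 3) in ESCs and 31.6 ± 2.85 TPM in EpiLCs (log2 fold change 0.71, edgeR adjusted p = 0.00231). The falls were Slc2a3, Ldhd, Mpc1, Pgam2, Tigar, Mpc2, Bsg and Adpgk. Without EpiLC replicate 1 or 2 the count of falls was 4.

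Mpc1 and Mpc2 form the carrier that brings pyruvate into mitochondria. Mpc1 was at 23.6, 33.8 and 17.9 TPM in ESCs and 11.4, 12.8 and 9.94 TPM in EpiLCs (log2 fold change -1.18 ± 0.25, SE, edgeR adjusted p = 0.00872), and Mpc2 had a log2 fold change of -0.73 ± 0.22 (adjusted p = 0.0319). Both had the order of the fibroblast markers across ESC libraries, and the part of feeder RNA in these falls was not tested. Without ESC replicate 2 their log2 fold changes were -0.91 (adjusted p = 0.00877) and -0.51 (adjusted p = 0.0492). Mpc2 lost its call without ESC replicate 1 or without any EpiLC replicate.

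Tigar, a fructose-2,6-bisphosphatase that draws sugar away from glycolysis, fell from 42.6 ± 4.02 TPM (SD, n = 3) to 23.6 ± 1.35 TPM (log2 fold change -0.91 ± 0.10, SE, edgeR adjusted p = 5.94e-04) and kept its call in every alternative fit. Pgam2, the muscle mutase, and Ldhd, which acts on D-lactate, were scarce, at 3.95 ± 0.741 and 1.27 ± 0.579 TPM in ESCs. Their log2 fold changes were -1.09 (adjusted p = 0.0204) and -2.08 (adjusted p = 0.0112), and both lost the call without EpiLC replicate 1. Pgam2 also lost it without ESC replicate 1, ESC replicate 3 or EpiLC replicate 2, and Ldhd was at -0.76 by limma on log2(TPM + 1). Adpgk, an ADP-dependent glucokinase, fell by 0.28 on the log2 scale (adjusted p = 0.0155) and lost its call when any EpiLC library was left out.

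The pentose phosphate pathway leaves glycolysis at glucose 6-phosphate and yields NADPH and ribose. Of its 9 genes, 4 rose, none fell and 5 did not pass by edgeR, with a median log2 fold change of 0.46. The rises were Pgd (0.78 ± 0.06, SE, adjusted p = 2.18e-04), G6pdx (0.65 ± 0.05, adjusted p = 2.18e-04), Pgls (0.49 ± 0.10, adjusted p = 0.00813) and Tkt (0.46 ± 0.08, adjusted p = 0.00479). The first 3 are the enzymes of the oxidative branch and Tkt, transketolase, belongs to the other branch. G6pdx, its entry enzyme, was at 72.3, 74.7 and 71.4 TPM in ESCs and 119, 122 and 115 TPM in EpiLCs, without overlap. These 4 calls held in every alternative fit, and H6pd, the enzyme of the endoplasmic reticulum, had a log2 fold change of -0.50 (edgeR unadjusted p = 0.0337, adjusted p = 0.0681) and was the 1 gene to pass as a fall by DESeq2. It was at 7.35, 11.31 and 6.97 TPM in ESCs and 6.06, 6.53 and 6.04 TPM in EpiLCs. That is the order of the fibroblast markers across ESC libraries, and the part of feeder RNA was not tested. Without ESC replicate 3 the count of falls among the 9 genes was 2.

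The tricarboxylic acid (TCA) cycle genes moved little. Of 17 genes, 2 rose (Dlst and Idh2, log2 fold changes 0.32 and 0.32), 2 fell (Sdhc, -0.31, and Idh3g, -0.24) and 13 did not pass, with a median of -0.04. The calls of Dlst and Sdhc held in every alternative fit, those of Idh2 and Idh3g did not, and Idh2 was at 0.23 without ESC replicate 2 (adjusted p = 0.0705). Of 4 gluconeogenesis genes tested, Fbp1, which undoes the phosphofructokinase step, rose from 0.540, 0.260 and 0.410 TPM in ESCs to 8.17, 7.45 and 5.99 TPM in EpiLCs (log2 fold change 4.05 ± 0.30, SE, edgeR adjusted p = 1.73e-04). Its lowest ESC library held 3 expected counts, and limma on log2(TPM + 1) gave a log2 fold change of 2.54. Pcx, pyruvate carboxylase, had a log2 fold change of -0.45 (adjusted p = 0.0359) that lost its call when any EpiLC library was left out, and it was at -0.29 without ESC replicate 3 (adjusted p = 0.0549).

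**Figure D4:**
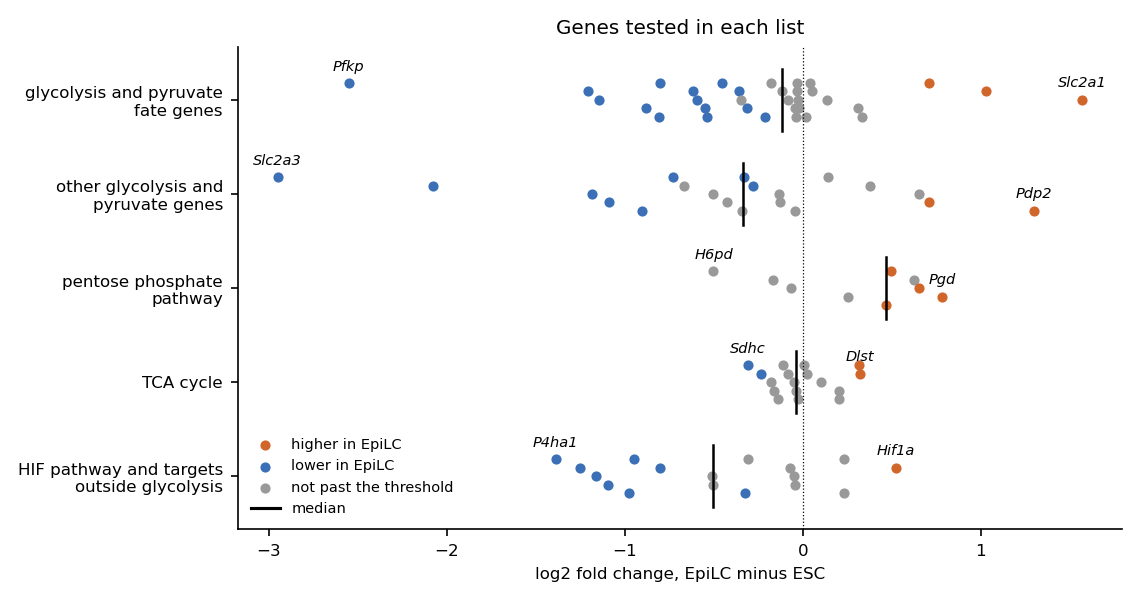
Each point is a gene that was tested, placed at its log2 fold change, EpiLC minus ESC, in 1 row per list, with orange for genes higher in EpiLCs, blue for lower and grey for those not past the threshold, and a black bar for the median. The medians lie at -0.12 for the 33 genes, -0.33 for other glycolysis and pyruvate genes, 0.46 for the pentose phosphate pathway, -0.04 for the TCA cycle and -0.51 for HIF genes outside glycolysis.

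Many genes of glycolysis are textbook targets of HIF1, and Hif1a itself rose from 95.8 ± 8.48 TPM (SD, n = 3) to 143 ± 6.39 TPM (log2 fold change 0.52 ± 0.07, SE, edgeR adjusted p = 0.00180). Of 17 HIF pathway genes and targets outside glycolysis that were tested, only Hif1a rose, 8 fell and 8 did not pass, with a median log2 fold change of -0.51. The falls were P4ha1, a collagen hydroxylase (-1.39, adjusted p = 8.76e-04), Kdm3a, a histone demethylase (-1.25, adjusted p = 5.96e-04), Mxi1, Adm, Epas1, Ndrg1, Vegfa and Arnt. P4ha1 and Adm had the order of the fibroblast markers across ESC libraries, and the part of feeder RNA in these falls was not tested. Without ESC replicate 2 the log2 fold change was -1.30 for P4ha1 (adjusted p = 0.00141) and -0.61 for Adm (adjusted p = 0.0781), against -1.10 for Adm with all libraries (adjusted p = 0.0487). Adm and Arnt each lost the call in 8 of 13 alternatives and Ndrg1 in 2, and Arnt had a log2 fold change of -0.32 with all libraries and -0.21 without ESC replicate 3. Without EpiLC replicate 2 the count of falls was 5.

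Factors known to act on these genes were also read. Esrrb, an ESC factor that binds genes of energy metabolism, fell from 186, 208 and 295 TPM in ESCs to 2.68, 2.55 and 3.01 TPM in EpiLCs (log2 fold change -6.44 ± 0.23, SE, edgeR adjusted p = 1.83e-05). Lin28a and Lin28b, RNA-binding proteins that affect glucose use, rose by log2 fold changes of 0.68 (adjusted p = 0.00359) and 1.06 (adjusted p = 4.70e-04). Myc and Mycn did not pass the test, at log2 fold changes of -0.17 and -0.10. Txnip, which lowers glucose uptake and is itself induced by glucose, fell by 0.72 ± 0.10 (adjusted p = 0.00137), Arrdc4, its relative, by 0.74 (adjusted p = 0.0389), and Mlx, their regulator, by 0.22 (adjusted p = 0.0371). Mlx lost its call in 9 of 13 alternatives, among them that without ESC replicate 2 (adjusted p = 0.0506). Arrdc4 lost it in 4, and its TPM overlapped between the groups.

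Of 5 factors that set the choice between the Pkm isoforms, Hnrnpa2b1 rose by a log2 fold change of 0.39 (edgeR adjusted p = 0.00101) and Hnrnpa1, Ptbp1, Srsf3 and Rbm4 did not pass. Ptbp1 was at 564 ± 7.18 TPM (SD, n = 3) in ESCs and 562 ± 9.89 TPM in EpiLCs.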

How the data were processed

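The 3 ESC and 3 EpiLC libraries were made from polyadenylated RNA and read as strand-specific single 76-base reads. Per the labels and the study's methods, the authors trimmed reads with cutadapt 1.16, aligned them with STAR 2.5.2a to mm10 and estimated levels with RSEM 1.3.0, and tested with DESeq2 1.16.1. The authors deposited expected counts per gene, in which reads that match several genes are split between them, so that 4.27% to 4.65% of values per library were not whole. The authors also deposited TPM, which divides by transcript length and scales each library to 1 sum. A level and a share of a family are given from TPM, and a fold change from counts.

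The 33 members and the other lists were chosen with earlier results of these data known. Expected counts were rounded, filtered with filterByExpr (14468 of 24736 genes kept), scaled by TMM (factors 0.979 to 1.02) and tested with edgeR 4.0.16 in R 4.3.3 by the quasi-likelihood test, group as the only term, with Benjamini-Hochberg adjustment over all genes tested and a threshold of 0.05. Every log2 fold change, SE, 95% interval and adjusted p is from that fit unless another is named. Shares and sums were compared by exact two-sided permutation tests over libraries. The labels call the replicates biological and say no more of their origin, so p-values measure the spread between these libraries. A count of 3 corresponds to 0.0855 to 0.177 CPM, which covers counting error only. Alternatives were upper-quartile scaling, DESeq2 1.42.0, no filter, 10 counts in every library, the replicate number as a block, limma 3.58.1 on log2(TPM + 1) and log2(TPM + 0.1), CPM in place of TPM, and leaving out each library. Summing Eno1 or Gapdh with genes that share 76-base stretches, adding Slc2a3 or Pdp2 to a family, and fits of list genes were chosen after seeing the data. All 33 members are named, and of the other pathway lists every gene that passed the test, plus some that did not, chosen after their values were seen. Cell type marker lists are given by counts and sums. The scripts were tested on simulated counts. Shared 76-base stretches were counted on GENCODE transcripts, and gene positions and the stretches before starts are from RefSeq on GRCm38.p6.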

Additional observations from a re-analysis of the deposited data

How the results depend on the processing

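Of the 17 members that passed the test, 9 kept the call in every alternative (Hk1, Pfkm, Pfkp, Pgk1, Pdk4, Pdha1, Pdp1, Slc2a1 and Slc16a1), 8 lost it in at least 1, and none changed sign. Gapdh and Eno1 passed in 1 alternative each. Leaving out 1 library gave 2 to 4 rises and 8 to 15 falls among the members, a median between -0.24 and -0.047, and, over all genes, 2144 to 3572 rises and 2100 to 3609 falls. Fewer libraries leave the fit less to estimate the spread from.

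With the replicate number as a block, 3 members rose and 13 fell, and 2979 genes rose and 3106 fell in all. Pgam1 lost its call under the block (adjusted p = 0.0619) and Aldoc went to 0.033. Deviations of same-numbered libraries correlated at 0.0067, 0.19 and 0.17 across genes, and those of libraries with different numbers at -0.21 to 0.084. Of the libraries, 2 of 3 ESC and 2 of 3 EpiLC correlated best with their own number. The labels do not say whether the numbers pair the samples. The study's methods name no block, so the main fit has none.

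The log2 fold change changed sign in 8 members, none of which passed the test. With limma on log2(TPM + 0.1) and on log2(TPM + 1) it was 0.018 in both for Pfkl, 0.093 and 0.085 for Aldoc, 0.024 in both for Pkm, 0.031 and 0.030 for Pdk3 and 0.015 in both for Pdhb. Pdk3 was at 0.0018 with upper-quartile scaling. With 1 library left out, it ran from -0.16 to 0.088 for Pfkl, from -0.28 to 0.32 for Aldoc, from -0.24 to 0.10 for Eno3, from -0.083 to 0.020 for Pkm, from -0.013 to 0.084 for Ldha, from -0.036 to 0.10 for Pdk1, from -0.075 to 0.015 for Pdk3 and from -0.14 to 0.043 for Pdhb. The cause was not tested.

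The log2 ratio of the summed level was 0.088 for glucose uptake with Slc2a3 added, against 1.62 for Slc2a1 alone. For the PDH phosphatases the log2 ratio was 0.925 with Pdp2 added, against -0.497 for Pdp1 alone. In CPM, which weight long transcripts more, the log2 ratio was 0.16 for lactate transport, against 0.32 in TPM, and -0.28 for the PFKFB genes, against -0.08. Of the alternatives for isozyme shares, 171 moved by less than the spread between replicates and 7 by more, and none changed sign. Of the 36 called genes of the other pathway lists, marker lists left out, 23 kept the call in every alternative, 13 lost it in at least 1, and none changed sign. With 3 libraries a group, an exact permutation test cannot go below 0.1.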
